A study of Mus musculus with 2 samples.

Results

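The 32 genes described here build cholesterol, control how much of it is built, and move it within and out of the cell. They were chosen by symbol from a list that runs along the pathway, and all 32 were found among the 43346 genes quantified in MEL cells. MEL is an established mouse erythroleukemia line, grown from virus-transformed red cell precursors. Its polyadenylated RNA was sequenced single-end in 2 libraries of 1 group, numbered by the labels as biological replicates 1 and 2. The labels give no treatment or genotype beyond the line, and the line is the only source of cells, so the data hold no contrast of conditions. Expected counts, the estimated number of reads assigned to genes, totalled 67735380 in replicate 1 and 79923143 in replicate 2. Levels are given in TPM, a relative number of transcripts that corrects for gene length and library size, so genes can be compared on this scale. No correction for GC content was made in these levels. In bulk RNA, fewer cells expressing a gene and less RNA per cell cannot be told apart.

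Cholesterol is made from acetyl-CoA. The mevalonate steps give isoprenoid units, farnesyl diphosphate is the branch point to prenylated proteins, dolichol and ubiquinone, and squalene is cyclized and trimmed to cholesterol. The SREBP transcription factors sit in the endoplasmic reticulum with their escort SCAP. When sterols are low, SCAP carries them to the Golgi, where proteases free the active factor, and when sterols are high, INSIG proteins hold the complex back. LXR nuclear receptors sense oxysterols and turn on efflux transporters. Red cells carry much cholesterol in their plasma membrane and lose the organelles that make it as they mature.

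All 10 erythroid marker genes were above 10 TPM in the mean, with a median of 142 TPM. Summed over 6 genes, hepatocyte markers reached 8.02 and 12.2 TPM in replicates 1 and 2, all of it from Apoa1, with Alb, Ttr, Serpina1a and Cyp7a1 at 0 counts. Macrophage markers summed to 0.43 and 0.66 TPM over 6 genes, with Marco at 0 counts, and fibroblast and steroidogenic markers to 3.03 and 3 TPM over 6 genes, mostly from Star, with Cyp11a1 at 0 counts. At 0 counts a gene could still hold at most 4.43e-06% of counts in replicate 1 and 3.75e-06% in replicate 2, for counting error only.

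Promoter windows of genes on which the results turn are shown first, because SREBP acts through short DNA elements near the start of its target genes. Each window is 300 bases of the RefSeq sequence on GRCm38.p6, from 250 before to 50 after a gene start, on the gene's own strand. Capitals mark matches on either strand to the sterol regulatory element core TCACNCCAC, the E-box CACGTG, the NF-Y site CCAAT and the SP1 site GGGCGG. The windows are Hmgcs1 at chr13:119690101-119690400 (plus strand), Insig1 at chr5:28071162-28071461 (plus), Insig2 at chr1:121327975-121328274 (minus) and Srebf2 at chr15:82147019-82147318 (plus). Srebf1 has 3 starts in RefSeq, all on the minus strand, and the windows lie at chr11:60222532-60222831 (upstream start), chr11:60220578-60220877 (middle start) and chr11:60210422-60210721 (downstream start).
Hmgcs1: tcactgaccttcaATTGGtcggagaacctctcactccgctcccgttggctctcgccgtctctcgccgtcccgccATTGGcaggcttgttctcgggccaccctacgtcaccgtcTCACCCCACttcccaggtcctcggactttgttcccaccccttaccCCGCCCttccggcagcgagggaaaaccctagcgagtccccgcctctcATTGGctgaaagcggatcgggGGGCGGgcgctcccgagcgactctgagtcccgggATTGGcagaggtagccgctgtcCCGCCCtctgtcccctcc
Insig1: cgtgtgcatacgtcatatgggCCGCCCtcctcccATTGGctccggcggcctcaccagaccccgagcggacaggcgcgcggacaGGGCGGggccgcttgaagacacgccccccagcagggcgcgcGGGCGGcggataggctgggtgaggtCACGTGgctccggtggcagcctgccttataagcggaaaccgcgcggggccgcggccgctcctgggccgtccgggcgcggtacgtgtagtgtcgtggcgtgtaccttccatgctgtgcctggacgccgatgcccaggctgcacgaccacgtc
Insig2: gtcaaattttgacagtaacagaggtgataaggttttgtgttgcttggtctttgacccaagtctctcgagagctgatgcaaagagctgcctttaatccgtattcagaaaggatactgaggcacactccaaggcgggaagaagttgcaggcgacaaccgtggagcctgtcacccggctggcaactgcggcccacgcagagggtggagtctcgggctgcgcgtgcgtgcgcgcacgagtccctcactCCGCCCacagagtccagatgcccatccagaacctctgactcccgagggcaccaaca
Srebf2: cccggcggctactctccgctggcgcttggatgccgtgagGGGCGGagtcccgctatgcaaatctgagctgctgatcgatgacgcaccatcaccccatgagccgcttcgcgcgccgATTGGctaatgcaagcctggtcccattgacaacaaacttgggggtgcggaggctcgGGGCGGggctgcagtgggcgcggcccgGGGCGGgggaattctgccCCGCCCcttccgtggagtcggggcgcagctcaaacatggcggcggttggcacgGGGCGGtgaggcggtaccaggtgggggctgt
Srebf1 upstream start: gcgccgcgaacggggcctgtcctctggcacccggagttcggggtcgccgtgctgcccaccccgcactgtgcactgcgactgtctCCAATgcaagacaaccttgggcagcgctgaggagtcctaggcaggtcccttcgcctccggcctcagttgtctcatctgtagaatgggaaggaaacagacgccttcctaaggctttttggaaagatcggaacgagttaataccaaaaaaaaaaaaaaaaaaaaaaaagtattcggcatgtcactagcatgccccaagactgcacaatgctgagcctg
Srebf1 middle start: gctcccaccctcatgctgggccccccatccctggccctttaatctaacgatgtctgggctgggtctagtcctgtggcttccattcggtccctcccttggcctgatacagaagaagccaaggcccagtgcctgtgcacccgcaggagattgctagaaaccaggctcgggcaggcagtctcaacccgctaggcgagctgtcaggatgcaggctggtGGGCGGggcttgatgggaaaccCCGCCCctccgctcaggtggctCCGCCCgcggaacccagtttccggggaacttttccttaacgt
Srebf1 downstream start: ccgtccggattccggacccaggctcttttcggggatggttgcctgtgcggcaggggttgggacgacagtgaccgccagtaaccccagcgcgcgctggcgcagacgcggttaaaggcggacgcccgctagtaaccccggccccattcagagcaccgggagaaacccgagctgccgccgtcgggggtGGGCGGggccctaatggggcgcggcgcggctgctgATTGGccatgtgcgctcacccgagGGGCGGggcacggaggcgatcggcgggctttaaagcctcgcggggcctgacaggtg

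The Hmgcs1 window held the only match to TCACNCCAC among the 35 RefSeq windows of 26 member genes, as TCACCCCAC beginning at position -137 from the start, with 4 CCAAT and 3 GGGCGG matches beside it. Over all 32851 windows in the table, 1.24% held this core. The Insig1 window held 1 CACGTG, beginning at position -101, 1 CCAAT and 3 GGGCGG, while the Insig2 window printed held 1 GGGCGG alone. Insig2 also has other RefSeq windows, not printed here. The one at chr1:121332540-121332839 held 3 CCAAT, and the one at chr1:121327629-121327928 held 1 GGGCGG. The Srebf2 window held 1 CCAAT and 5 GGGCGG. Of the Srebf1 windows, the upstream one held 1 CCAAT, the middle one 3 GGGCGG and the downstream one 1 CCAAT and 2 GGGCGG. Across members, CCAAT was in 22 windows of 21 genes (62.9% of windows, against 37.4% of all windows), GGGCGG in 26 windows of 22 genes (74.3%, against 35.7%) and CACGTG in 7 windows of 6 genes (20%, against 7.15%). The E-box genes were Hsd17b7, Sc5d, Dhcr7, Scap, Insig1 and Abca1. None of the 4 motifs contains another, a match is a description of sequence and not of binding, and windows of 1 gene can share bases.

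All 32 members were detected at 1 TPM or more in both replicates, as were 46.8% of the 21474 protein-coding genes. At 10 TPM or more in both, there were 24 members of 32, against 31.4% of protein-coding genes. The median of the mean TPM over members was 20.04 ± 2.38 (SD of the replicate medians, n = 2), with medians of 21.93 and 18.565 in replicates 1 and 2. Over the 10045 detected protein-coding genes it was 23.01, with replicate medians of 22.26 and 22.2 (SD 0.0424). The list as a whole thus lay close to the middle of expressed genes. By role, the median of the mean TPM was 21.4 for the 8 mevalonate and isoprenoid enzymes (26.8 and 22.4 in replicates 1 and 2). For the 11 sterol enzymes it was 20.005 (20.55 and 17.5). For the 5 SREBP factors, escort and retention proteins it was 49.9 (35.5 and 46.3). It was 7.64 for the 5 LXR receptors and targets (7.61 and 6.82) and 30.5 for the 3 transfer and lysosomal genes (33.7 and 27.25). A median of means need not lie between the medians of the replicates. Srebf1 was the highest member, above 89.9% of detected protein-coding genes, and Nr1h3 the lowest.

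**Figure D1:**
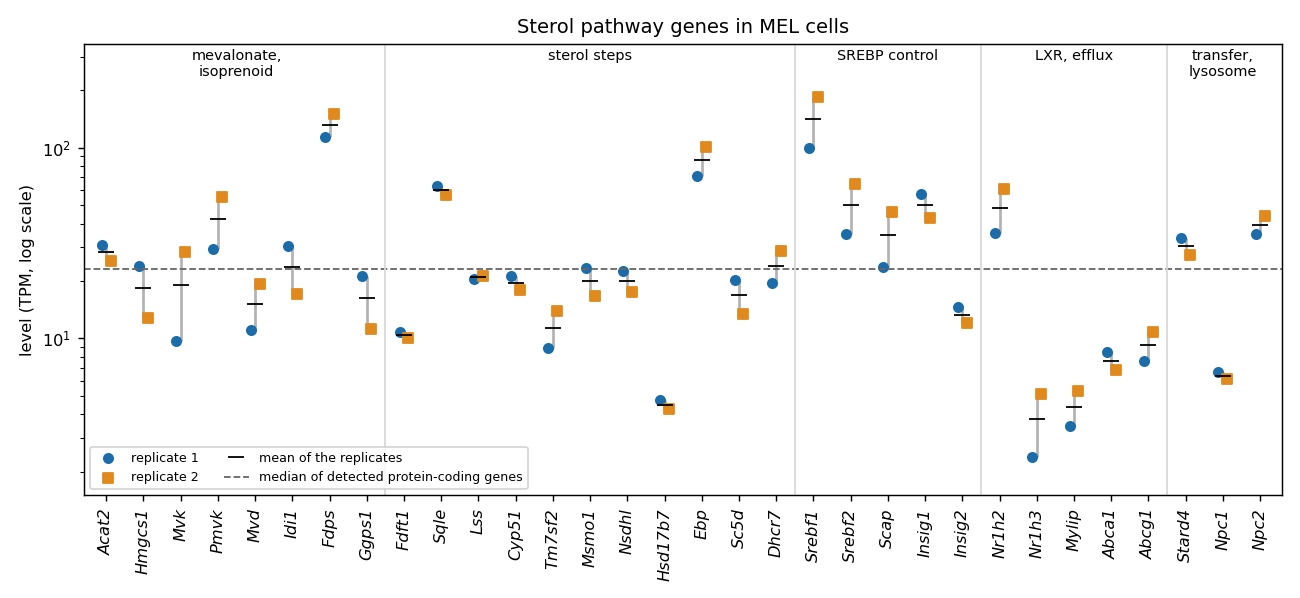
Level in TPM (log axis) of each of the 32 members in replicates 1 and 2, with members grouped by role and points for single libraries. Members span from 2.39 TPM for Nr1h3 to 184 TPM for Srebf1, and most enzymes lie between 10 and 30 TPM.

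The mevalonate steps were all expressed, with a wide gap between Fdps and the rest. Acat2, the cytosolic thiolase that starts the pathway by joining acetyl-CoA units, was at 30.9 and 25.6 TPM in replicates 1 and 2. Hmgcs1, which makes HMG-CoA, was at 24.1 and 12.7 TPM. Their order was the same in both libraries, with Acat2 the higher. Mvk, the first mevalonate kinase, was at 9.73 and 28.4 TPM, the least alike pair of values among the 32 genes. Pmvk, the kinase after it, was at 29.5 and 55.3 TPM. Mvd, which decarboxylates mevalonate diphosphate to the first isoprenoid unit, was at 11.1 and 19.3 TPM. These kinase and decarboxylase genes were all lower in replicate 1. Idi1, which isomerizes isopentenyl diphosphate, was at 30.4 and 17.03 TPM, and was higher in replicate 1. Fdps, the farnesyl diphosphate synthase at the branch point, was at 114 and 151 TPM, a mean of 132 ± 26.3 (SD, n = 2), the highest of the 19 enzymes and above 89.0% of detected protein-coding genes. Ggps1, the next prenyl synthase on the way to geranylgeranylated proteins, was at 21.2 and 11.3 TPM.

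The sterol steps after farnesyl diphosphate were even apart from Sqle and Ebp at the top and Hsd17b7 at the bottom. Fdft1, squalene synthase and the first enzyme committed to sterols, was at 10.8 and 10.1 TPM, low beside Fdps, its supplier of substrate. Sqle, squalene epoxidase and a known control point of flux, was at 62.9 and 56.7 TPM. Lss, which cyclizes the epoxide to lanosterol, was at 20.6 and 21.4 TPM. Sqle thus exceeded both neighbours in the pathway in each library. Cyp51, the lanosterol demethylase, was at 21.2 and 17.9 TPM. Tm7sf2, a sterol reductase of the following step, was at 8.93 and 13.9 TPM. Lbr, a nuclear envelope protein that catalyses the same reduction and is no member of the list, was at 88.9 and 91.8 TPM. The lamin B receptor gene was therefore the higher of the pair in both libraries. Msmo1, the methylsterol oxidase, was at 23.4 and 16.6 TPM. Nsdhl, the decarboxylating dehydrogenase that acts with it, was at 22.6 and 17.5 TPM. Hsd17b7, the ketosteroid reductase that closes this cycle, was at 4.73 and 4.27 TPM. It was the lowest of the 19 enzymes in both libraries, although the 3 work in 1 removal cycle. Ebp, the sterol isomerase, was at 71.1 and 100.4 TPM. Sc5d, the desaturase after it, was at 20.3 and 13.4 TPM. Dhcr7, the reductase that gives cholesterol from its last precursor, was at 19.5 and 28.6 TPM. Of the 19 enzymes, 14 had a mean of 10 to 30 TPM, 4 were above and 1 was below. Fdps exceeded Hsd17b7 24.1-fold in replicate 1 and 35.3-fold in replicate 2.

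Of the 5 regulators, 4 had a mean above 20.005 TPM, the median of the 19 enzymes, and Insig2 lay below it. Srebf1, the SREBP gene better known for fatty acid synthesis, was at 99.4 and 184 TPM. Srebf2, the SREBP gene better known for cholesterol synthesis, was at 35.5 and 64.4 TPM. Both were lower in replicate 1, and Srebf1 was the higher of the pair in each library. Scap, the escort, was at 23.6 and 46.3 TPM. Insig1, a retention protein whose gene is itself a SREBP target, was at 57.1 and 43.0 TPM. Insig2, the retention protein known to be less dependent on SREBP, was at 14.6 and 12.03 TPM. Insig1 was the higher of the INSIG genes in both libraries.

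Among the LXR genes, the receptor Nr1h2 (LXR beta, broadly expressed) was at 35.7 and 60.5 TPM. The receptor Nr1h3 (LXR alpha, known from liver and macrophages) was at 2.39 and 5.14 TPM, from 188 and 475 expected counts, the fewest of any member. Mylip, a ubiquitin ligase that marks lipoprotein receptors for breakdown, was at 3.46 and 5.31 TPM. The 3 genes were all lower in replicate 1. Abca1, which exports cholesterol to apolipoprotein A-I, was at 8.45 and 6.82 TPM. Abcg1, which exports it to larger particles, was at 7.61 and 10.9 TPM. The 2 transporters thus changed order between libraries. Of the genes that move sterol inside the cell, Stard4, a soluble carrier between membranes, was at 33.7 and 27.3 TPM. Npc1, the membrane protein that exports cholesterol from lysosomes, was at 6.63 and 6.11 TPM. Npc2, its soluble partner, was at 35.2 and 43.9 TPM, above Npc1 in both libraries. Ggps1, Fdft1, Cyp51, Srebf1 and Npc1 overlap exons of an opposite-strand gene of at least 1 TPM. Their values are uncertain if strand was ignored in counting. Tm7sf2 overlaps exons of Vps51 on the same strand, at 27.7 and 47.5 TPM, so its value is uncertain whatever the strand setting.

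In the order of mean levels, only 4 of 31 neighbouring genes did not overlap in their replicate values: Fdps lay above Ebp, Ebp above Sqle, Abca1 above Npc1 and Npc1 above Hsd17b7. The order of Ebp and Sqle depends on the gene model. With reads counted over the longest protein-coding transcript, Ebp was at 31.8 and 43.3 TPM in replicates 1 and 2. Sqle was then at 63.2 and 56.8 TPM, above Ebp in both libraries. Srebf1, first by mean, overlapped Fdps. The 2 replicate orders of the 32 genes had a Spearman correlation of 0.86, given as a description since both libraries share the gene models, and Mvk moved most, by 13 ranks.

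To compare genes that share a job, the log2 ratio of TPM (with 0.1 added) was taken within each library for 12 pairs. The yardstick was the spread between replicates over all 11655 detected genes, 95% of which differed by less than 1.40 on the log2 scale, or 2.64-fold. A sign-flip test on 2 libraries cannot give a p under 0.5, and none was run. Past this yardstick were 6 of 12 pairs. Nr1h2 exceeded Nr1h3 by 3.69 ± 0.22 on the log2 scale (SD, n = 2), or 12.9-fold. The log2 ratio of Tm7sf2 to Lbr was -3.01 ± 0.41, with Lbr 8.06-fold the higher. Npc2 exceeded Npc1 by 2.61 ± 0.30, or 6.10-fold. Insig1 exceeded Insig2 by 1.90 ± 0.09, or 3.72-fold. Sqle exceeded Lss by 1.51 ± 0.15, or 2.84-fold. The ratio of Srebf2 to Srebf1 was -1.50 ± 0.02, so Srebf1 was 2.83-fold the higher, with nearly the same ratio in both libraries. This value depends on the gene model: with reads counted over the longest protein-coding transcript it was -0.81, inside the yardstick.

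The other 6 pairs lay within it. Srebf2 and Scap differed by 0.53 ± 0.08. Hmgcs1 and Acat2 differed by -0.68 ± 0.46, Fdft1 and Ggps1 by -0.56 ± 0.57, and Mylip and Abca1 by -0.81 ± 0.64. In these 4 the sign was the same in both libraries. Abca1 over Abcg1 was -0.26 ± 0.57 and Idi1 over Mvd was 0.63 ± 1.15, and in both the sign changed between libraries. In replicate 1 alone Idi1 over Mvd was 1.44, past the yardstick, so replicate 2 decides that pair. The pair ratios were not corrected for GC content, along which the libraries differ, as described below. The gap in GC percent was widest for Idi1 minus Mvd (-18.1), Tm7sf2 minus Lbr (9.98) and Fdft1 minus Ggps1 (9.05).

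**Figure D2:**
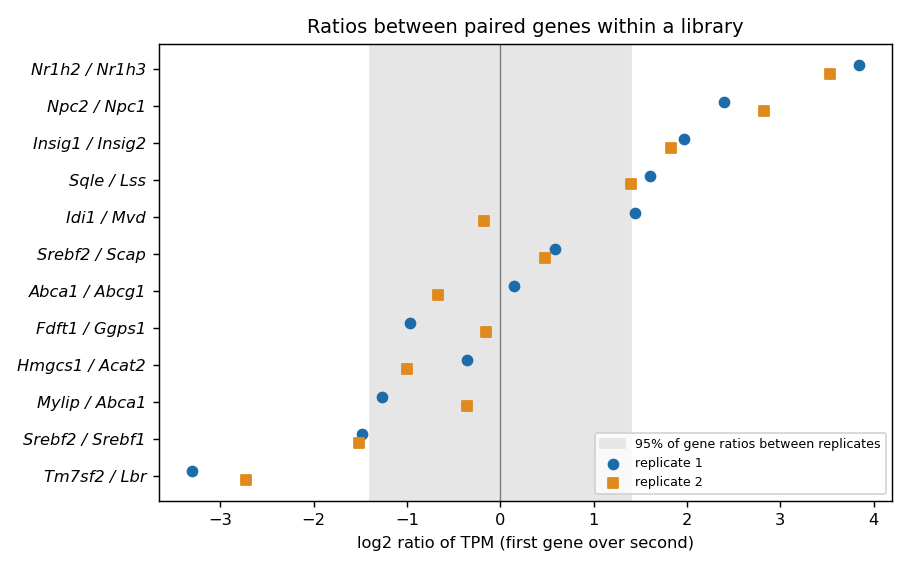
Log2 ratio of TPM of each of the 12 gene pairs in replicates 1 and 2, with pairs in order of their mean. The shaded span, 1.40 on either side of 0, holds the replicate differences of 95% of detected genes. The Nr1h2 to Nr1h3 and Tm7sf2 to Lbr pairs lie farthest outside it, and Abca1 to Abcg1 and Idi1 to Mvd cross 0.

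The libraries themselves differed, and members were compared between them on rounded expected counts by an exact conditional binomial test with Benjamini-Hochberg adjustment over all 15251 genes tested. A gene was called at an adjusted p under 0.05 and at least 2-fold. The test compares 2 libraries and covers counting error only, and ratios are replicate 1 over replicate 2. No member was called higher in replicate 1, where 11.5% of tested genes were, and 3 members were called higher in replicate 2, where 8% were. Without the fold minimum, an unadjusted p under 0.05 was met by 14 members higher in replicate 1 and 16 higher in replicate 2, and 30 members kept an adjusted p under 0.05, against 77.4% of tested genes. In either direction 3 members were called, and 19.5% of tested genes. By edgeR's exact test with an estimated dispersion no member was called, and 0.918% of tested genes were. That dispersion was estimated from these same 2 libraries taken as replicates, so it holds the difference under test. Few calls follow from this setting, and no conclusion is drawn from them.

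The called genes were Mvk, Srebf1 and Nr1h2. The count ratio of Mvk was -1.28 on the log2 scale (701 and 2164 counts in replicates 1 and 2, binomial adjusted p = 1.97e-104). That of Nr1h2 was -1.11 (2179 and 5986 counts, binomial adjusted p = 6.56e-230). That of Srebf1 was -1.03 (11554 and 30055 counts), with a binomial adjusted p below the smallest number the software holds. All 3 have GC-rich transcripts, at 58.5% for Mvk, 60.9% for Nr1h2 and 59.4% for Srebf1, against a median of 50.2% over tested genes. Scap and Nr1h3 lay just inside the fold minimum, at -0.98 and -0.99. Fdft1 at 0.08 (binomial adjusted p = 0.134) and Npc1 at -0.02 (binomial adjusted p = 0.767) were the 2 members that did not pass at any fold. For 27 of 32 members the deposited credibility intervals of TPM did not overlap between libraries. This held for 77.5% of detected genes and 82.2% of detected protein-coding genes.

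The ratio of the members followed GC content closely. Across the 32 genes, Pearson's r between GC percent and the log2 ratio was -0.93 and Spearman's rho was -0.96, against -0.57 and -0.76 over 15102 tested genes with known GC. These are descriptions across genes, which share the same pair of libraries and are not independent replicates. Idi1, at 41.1% GC the least GC-rich member, was at 0.82, Hmgcs1 at 43.6% GC was at 0.91, and Ggps1 at 43.2% GC was at 0.90. Of the 14 members above the GC median of tested genes, 12 were higher in replicate 2 and 2, Acat2 and Fdft1, were higher in replicate 1. Of the 18 at or below it, 13 were higher in replicate 1 and 5 in replicate 2. Over all tested genes the fitted trend stood at 1.86-fold higher in replicate 1 at 42% GC and at 0.56-fold at 60% GC.

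With this trend removed, no member was called higher in replicate 1, where 4.09% of 15102 genes were, nor in replicate 2, where 3.48% were. In either direction 7.57% of genes were called. Of the 10045 detected protein-coding genes, 64 were called higher in replicate 1 and 77 in replicate 2, so calls were rare among such genes too. With no fold minimum, 25 members kept a binomial adjusted p under 0.05. The median absolute log2 ratio of the members was 0.18 after removal and 0.48 before it, against 0.25 and 0.59 over tested genes. Mvk stood at -0.50 after removal, Srebf1 at -0.22 and Nr1h2 at -0.25. Idi1 stood at -0.17 and Hmgcs1 at 0.17. Past 1.5-fold there was 1 member after removal, Mylip at -0.62, against 14 before. Mylip, at 50.01% GC, had a ratio of -0.63 before removal, so its excess in replicate 2 was hardly touched. Ebp at -0.55 was the next largest. Before removal, 1 of the 10 erythroid markers was called higher in replicate 1, where 11.5% of tested genes were. Called higher in replicate 2 were 4 of them, where 8% of tested genes were. After removal no erythroid marker was called, and the part of these markers in the member ratios was not tested.

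**Figure D3:**
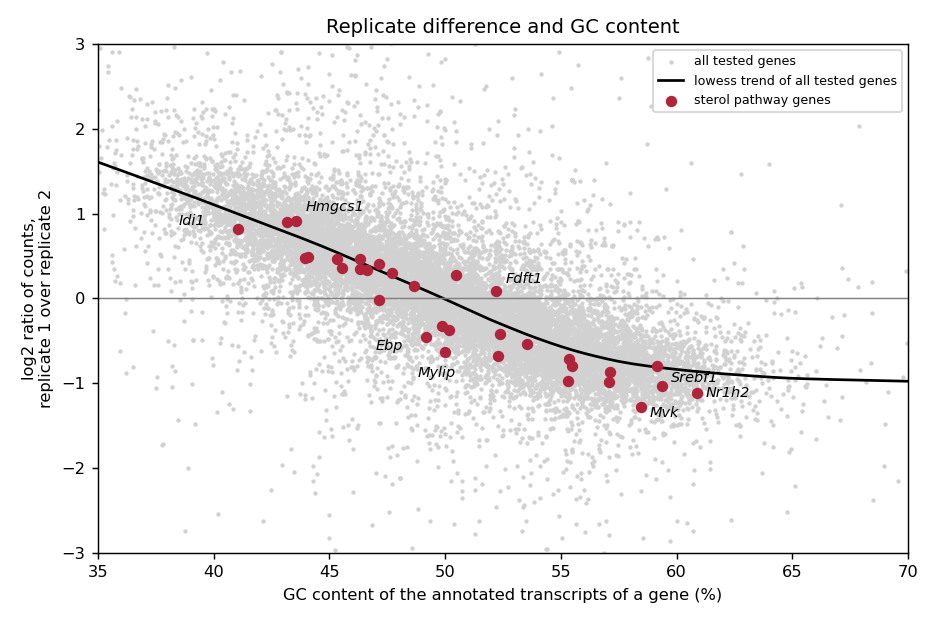
Log2 ratio of expected counts, replicate 1 over replicate 2, against GC percent of the gene for tested genes within the axes (grey; those beyond are not drawn), the fitted trend (line) and the 32 members (coloured). Members lie along the trend, from 0.82 for Idi1 at 41.1% GC to -1.11 for Nr1h2 at 60.9% GC.

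The annotated transcripts of each gene show where a gene level rests on 1 product. A single transcript was listed for 10 members, and of the other 22 the most abundant transcript was the same in both libraries for 17. It differed for Lss, Tm7sf2, Msmo1, Ebp and Nr1h2. Shares below are of the TPM of a gene, in replicates 1 and 2. Single-end reads that fall in shared exons are divided by a model, so shares of transcripts are less certain than gene levels. Transcripts other than the most abundant and retained-intron ones were named after their values were seen.

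Ebp-202, a retained-intron transcript, held 34.1% and 34.1%, and retained-intron transcripts of Ebp summed to 65.2% and 60.1%. Of its protein-coding transcripts, Ebp-203 held 29.8% and 36.4%, and the longest, Ebp-201, held 5.09% and 3.50%. The level of Ebp counted over its longest protein-coding transcript was 37.5 TPM, in place of 85.7. The protein-coding Lss-201 held 34.7% and 70.7%, and the noncoding Lss-202 held 40.0% and 3.56%. Lss-202 is only 352 bases long and held 3.77% and 0.269% of the counts of Lss. Counted over its longest protein-coding transcript, Lss was at 14.5 and 18.7 TPM. The TPM of Lss was nearly equal between libraries while its counts had a log2 ratio of -0.37. The protein-coding Msmo1-201 held 47.3% and 26.5%, and the noncoding Msmo1-206 held 46.5% and 48.8%. Nr1h2-201 held 9.98% and 35.6%, and Nr1h2-203 held 23.2% and 11.2%. By contrast Acat2-201, Sqle-201 and Idi1-201 each held over 90% in both libraries. For Dhcr7, Dhcr7-202 held 77.0% and 90.1%; its start lies 6459 bases downstream of that of Dhcr7-201. Insig2-201, which begins near the start of the window printed above, held 66.7% and 63.1%.

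Srebf1 is known to make SREBP-1a from an upstream first exon and SREBP-1c from a downstream one, both protein-coding. Srebf1-201, the longest protein-coding transcript, begins near the middle RefSeq start, as the 1a form does, and held 43.7% and 33.0% of TPM and 73.8% and 50.5% of counts. Srebf1-207, a protein-coding transcript that begins 10139 bases downstream of Srebf1-201 near the downstream RefSeq start, as the 1c form does, held 10.5% and 13.4% of TPM and 13.1% and 15.1% of counts. The 1a-type transcript was the more abundant of the 2 in both libraries. Srebf1-204, which begins 1977 bases upstream of Srebf1-201 at the upstream RefSeq start, is a noncoding transcript of 367 bases and held 2.44% and 4.24% of TPM. The protein-coding Srebf1-203 begins downstream of both coding starts and held 2.01% and 18.9% of TPM, so the assignment among transcripts moved between libraries. Reads in exons that transcripts share are divided by the model, and the share of a transcript is not a measure of the use of its start.

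**Figure D4:**
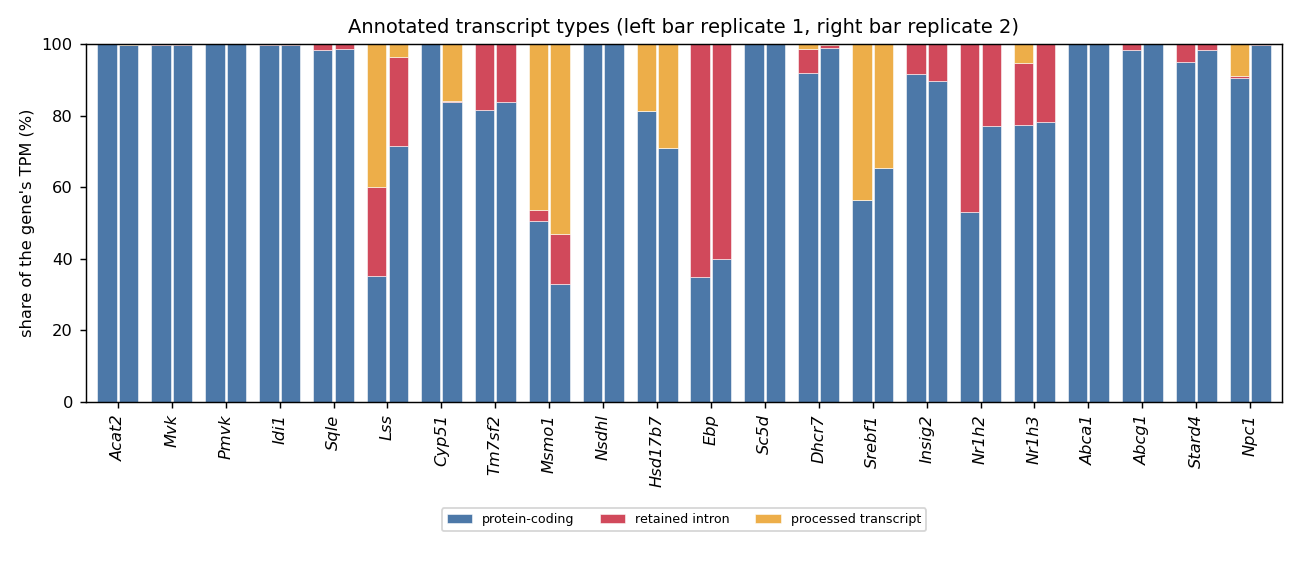
Share of the TPM of a gene, in percent, by class of annotated transcript in replicates 1 and 2 for members with several transcripts. Retained-intron transcripts take 65.2% and 60.1% of Ebp, and the noncoding share of Lss differs most between libraries.

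The genes around the pathway were read from 6 further lists, which were chosen with earlier results of these data known. The share to set beside calls in these lists is 19.5% of tested genes in either direction, or 7.57% with the GC trend removed. Of the prenyl branch, which spends the farnesyl and geranylgeranyl groups that Fdps and Ggps1 make, 11 of 11 genes were detected, with a median of 32.045 TPM and none called between libraries. The farnesyltransferase subunit gene Fnta was highest, at 72.6 and 49.6 TPM, and the ubiquinone side-chain gene Pdss2 lowest, at 13.8 and 11.2 TPM. Of the genes that process SREBP or degrade its partners, 12 of 12 were detected, with a median of 32.9 TPM and none called. The segregase gene Vcp, which has many other roles, was highest at 388 and 318 TPM, and Paqr3, a Golgi anchor, was lowest at 3.29 and 4.48 TPM.

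Of the fatty acid genes that SREBP is known to drive, 14 of 16 were detected, with a median of 30.9 TPM. Scd2, the stearoyl desaturase of many tissues, was at 502 and 385 TPM, and Fasn, fatty acid synthase, was at 111 and 218 TPM. Scd1, a desaturase paralog, was at 6.32 and 18.4 TPM and was the only gene of this list called (log2 ratio -1.55, higher in replicate 2). It was still called with the GC trend removed, at -1.65. Thrsp and Pnpla3, both known from liver and fat, had at most 3 counts in either library. Of the LXR partners and targets, 5 of 9 were detected, with a median of 11.4 TPM over the 9. Lpcat3, a phospholipid remodelling enzyme, was at 170 and 249 TPM, and Apoe, an apolipoprotein, was at 22.4 and 46.1 TPM and was called higher in replicate 2, though not with the GC trend removed. The sterol exporters Abcg5 and Abcg8 and the partner receptor Rxrg had at most 1 count, and Smpdl3a, an LXR target, had 2 and 0 counts.

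Of the oxysterol and bile acid enzymes, 1 of 6 was detected, Hsd3b7 at 1.97 and 1.91 TPM. Ch25h, Cyp27a1, Cyp46a1, Cyp7a1 and Cyp7b1 had 0 counts in both libraries, so none of these genes was detectable at this depth. Of genes of sterol transport, storage and uptake, 15 of 17 were detected, with a median of 18.6 TPM. Tmem97, a sterol-responsive membrane protein that binds Npc1, was highest at 90.8 and 126 TPM, and the lipoprotein receptor gene Vldlr had 0 counts and Gramd1b, a sterol carrier, had 0 and 1 count. Gramd1c, a sterol carrier at membrane contacts, was at 4.33 and 2.01 TPM and was called higher in replicate 1, though not with the GC trend removed.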

How the data were processed

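Polyadenylated RNA of 1 group of 2 libraries was analysed. Per the file headers and the accompanying text, the authors aligned reads to mm10 and quantified them with GENCODE M4; the aligner, quantifier and strand setting were not given in the sources used here. The deposited expected counts are model-estimated reads per gene or transcript, and the deposited TPM and FPKM are scaled by effective length and library size. Deposited score columns hold posterior SDs and the bounds of credibility intervals. GENCODE M21, on the same build, gave symbols and positions.

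The 32 members and all lists were chosen with earlier results of these data known. The text names all members, both genes of each pair, and from other lists genes among the 3 highest or 2 lowest, those below 1 TPM, and those called. A gene was detected at 1 TPM or more in both replicates. Expected counts were rounded, genes with at least 20 summed counts were tested two-sided with the exact conditional binomial (scipy 1.17.1), and library sizes were scaled by TMM (edgeR 4.0.16), because 1 library on each side leaves no degrees of freedom for a quasi-likelihood test. The GC trend was a lowess curve (statsmodels 0.14.6, fraction 0.3), with GC known for 99.0% of tested genes. DESeq2 1.42.0 gave alternative size factors. The binomial test and the removal of a GC trend were tested on simulated counts, and the other steps were not. The simulated counts held counting error and at most a GC trend. They cannot show how the calls behave where libraries differ in other ways. P-values of the binomial test cover counting error only and hold no estimate of other spread between libraries. Of the members, 26 had RefSeq promoter windows. A comparison of proteins was not run.

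The largest posterior SD of a member count was 1.04 times its counting error.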

Additional observations from a re-analysis of the deposited data

How the results depend on the processing

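The median member level was 14.1 on the FPKM scale, which sums differently from TPM, and 18.6 to 21.9 TPM with each replicate left out. Members called higher in replicate 2 numbered 5 with DESeq2 size factors and 5 with library totals (Scap and Nr1h3 added), 16 with no fold minimum, and 0 with edgeR's exact test, with the GC trend removed and with the GC and length trends removed. Those higher in replicate 1 numbered 14 with no fold minimum, so in either direction there were 5, 5, 30, 0, 0 and 0 under these settings. Over all genes, 2973 were called, against 11803 with no fold minimum, 1143 with the GC trend removed and 140 with edgeR's exact test. The dispersion of the exact test came from these same libraries taken as replicates, so few calls follow from that setting. The split of 1753 higher in replicate 1 and 1220 higher in replicate 2 was 1422 and 1700 with library totals. Between 6 and 7 pairs were past the yardstick with each replicate left out. Srebf2 to Srebf1 and Sqle to Lss fell inside it when the spread was taken over all tested genes. The joint GC and length setting, the longest-transcript setting and the wider spread were chosen after seeing the data. Where a value changed, the cause was not tested, except that the trend settings subtract the fitted trend. No paired analysis was possible because 1 group holds both libraries. Levels from few counts, such as that of Nr1h3, are limited by depth.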
